A study of Homo sapiens with 6 samples.

Results

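The replication-dependent histone genes are the short genes that supply new histone protein to replicating DNA, and they were taken here as every protein-coding row whose symbol starts with HIST1H, HIST2H, HIST3H or HIST4H. The rule found 71 genes among 57820 listed, with 6 for the linker histone H1, 17 for H2A, 18 for H2B, 15 for H3 and 15 for H4. Of these, 55 belong to the HIST1 cluster, 12 to HIST2, 3 to HIST3 and 1 to HIST4. A further 18 rows with such symbols are annotated as pseudogenes or other non-coding genes and were left out of the 71.

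All 6 libraries came from SEM, a human B-cell acute lymphoblastic leukemia line. In both groups the endogenous CTCF carried a miniAID-mClover3 degron tag, and the cells expressed the F-box protein OsTIR1(F74G), so that the auxin analog 5-Ph-IAA directs the tagged protein to degradation. An HA-tagged replacement was then induced with doxycycline, wild-type CTCF in the CTCF-WT group (n = 3) and CTCF lacking its RNA-binding region in the CTCF-dRBR group (n = 3). Every culture had 24 h of 5-Ph-IAA, with 1 µg/mL doxycycline over the last 18 h, so both groups were depleted of tagged endogenous CTCF, and no library came from untreated cells. How much endogenous CTCF remained was not measured in these data. The genotype label of the CTCF-WT samples names the tag but no transgene, and the groups were read from the sample titles. Nothing states whether the replicates were separate cultures, so p-values measure the spread between these libraries, which may be technical.

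Replication-dependent histone genes are transcribed as cells enter S phase, from the histone locus body, where NPAT and other factors gather. Their transcripts usually lack introns and a poly(A) tail and end in a conserved stem-loop, which the stem-loop binding protein SLBP holds through processing, translation and decay. A total RNA library without ribosomal RNA, as used here, reads such transcripts, whereas poly(A) selection would lose most of them.

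The libraries held 30034505 to 53166735 expected counts, and CTCF-dRBR replicate 1 was the shallowest. That library also stood apart on the first principal component, which carried 73.5% of the variance, and at the genome scale its deviations followed GC content with a Spearman rho of -0.78 across genes. The corresponding rho was -0.42 and 0.50 in the other CTCF-dRBR libraries and 0.34 to 0.71 in the CTCF-WT libraries. Protein-coding genes took 30.2% to 63.2% of TPM per library, with the lowest share in CTCF-WT replicate 1 and the highest in CTCF-dRBR replicate 1. CTCF itself, read from the tagged gene and the transgene together, stood at 209.9, 211 and 249 CPM in CTCF-WT (counts scaled to library size) and 273, 264 and 252 CPM in the CTCF-dRBR libraries (limma-voom adjusted p = 0.202). Its level therefore does not check which protein each culture made. Of 9 B-lineage markers, 8 reached 1 CPM in at least 1 library, and PAX5 and EBF1 were present in all libraries. The remaining one, DNTT, did not exceed 0.29 CPM in any library. The 4 T-cell, 4 erythroid and 4 stromal markers did not exceed 0.61 CPM in any library, and the 4 myeloid ones did not exceed 6.81 CPM.

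By position, 66 of the 71 members matched the Gencode version 44 annotation on GRCh37, the build of the deposited counts. The 50 matched HIST1 members spanned chr6:25723625-27861669, from HIST1H2AA to HIST1H2BO. The 12 HIST2 members lay in chr1:149389123-149859515, the 3 HIST3 members in chr1:228612546-228650805, and HIST4H4 alone in chr12:14920933-14924065. Of the 66, 52 had a single exon in every annotated transcript with a coding sequence.

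The stem-loop at the 3′ end is the feature that sets these messages apart from other mRNAs, so its sequence was read from the genome after the stop codon of each matched member. The search asked for a fully paired stem of 6 bases that starts with GG, closed by a loop of 4 that starts with UU. Such a sequence was found in 62 of 66 members, 22 to 67 bases after the coding end. No such sequence stood in the 150 bases after the coding end of HIST1H2AG, HIST1H2AK, HIST1H3E and HIST1H4L, where a stem-loop with a mismatch would have been missed. Within these terms, 5 sequences made up the 62, shown as RNA, 5′ to 3′, with the paired stem in capitals and the loop in lower case.
H1, H2A, H2B and H3 (39 members, among them HIST1H2AE at chr6:26217645-26217660, plus strand): GGCUCUuuucAGAGCC
H4 (9 members, among them HIST1H4J at chr6:27792237-27792252, plus strand): GGCCCUuuucAGGGCC
HIST1H1A, HIST1H1T, HIST2H2AB, HIST1H2BC, HIST1H2BD, HIST1H2BJ, HIST1H2BK, HIST1H3G and HIST3H3: GGCUCUuuuaAGAGCC
HIST1H4I, HIST1H4K, HIST2H4A and HIST2H4B: GGCCCUuuuuAGGGCC
HIST2H2AC (chr1:149858941-149858956, plus strand): GGCUCUuuuuAGAGCC
The H4 stem thus differed from the stem of the other types in all 13 H4 members with a match. HIST2H2AC was the 1 member with its particular stem and loop.

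Of the 71 members, 63 reached 1 CPM in at least 1 library and were tested, and all 63 were at 1 CPM or more in each of the 6 libraries. The other 8 were at or near 0. HIST3H2A, HIST3H2BB and HIST3H3 had 0 counts in every library, where the limit of 3 counts corresponds to at most 0.0999 CPM in the shallowest library. HIST1H1A, HIST1H2AA, HIST1H2BA, HIST1H4G and HIST2H3PS2 had at most 2.31 counts in any library. HIST1H2BA and HIST3H3 encode histones known from the testis, as does HIST1H1T, which was measured at 3.47 to 5.06 CPM.

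Histone transcripts were abundant in both groups. The 71 members together took 2.80%, 2.67% and 2.31% of all expected counts in the 3 CTCF-WT libraries and 1.31%, 1.83% and 2.11% in the 3 CTCF-dRBR libraries. After scaling by trimmed mean of M values (TMM), which sets libraries to a common composition, the summed level was 26768 ± 3801 CPM over the CTCF-WT libraries and 17053 ± 3748 CPM over the CTCF-dRBR ones (SD, n = 3 each). Single CTCF-dRBR libraries stood at 49.2%, 64.8% and 77.1% of the CTCF-WT mean, and the groups did not overlap. In deposited TPM, the groups did overlap, with sums of 34707, 38221 and 44509.9 TPM in CTCF-WT and 27428, 37575 and 35238 TPM in CTCF-dRBR. TPM divides by all transcripts of a library, of which the protein-coding share varied as given above. When TPM was rescaled to protein-coding genes alone, the groups separated again, at 102099 ± 15443 in CTCF-WT and 64457 ± 19225 in CTCF-dRBR.

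**Figure D1:**
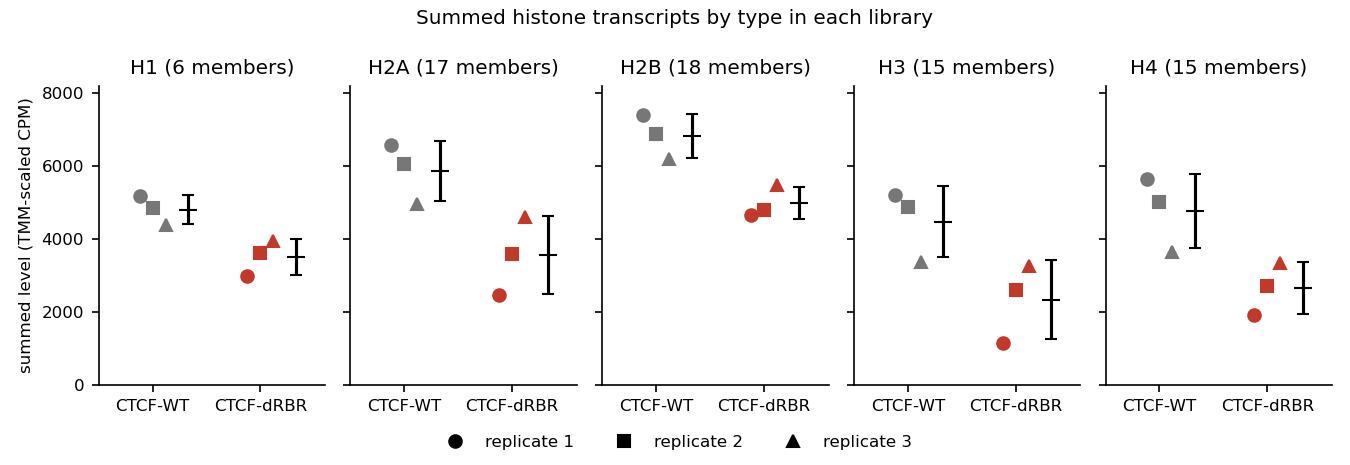
Summed TMM-scaled CPM of the members of each histone type (y axis) in the 3 CTCF-WT and 3 CTCF-dRBR libraries, with each symbol 1 library and the bar the mean ± SD. In every type the 3 CTCF-dRBR libraries sit below the 3 CTCF-WT libraries, and for H3 CTCF-dRBR replicate 1 is at 25.7% of the CTCF-WT mean. In deposited TPM (not shown), only the H4 sums did not overlap between the groups.

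Across members, the direction was nearly uniform on the TMM scale, while the adjusted test passed no member. Of the 63 tested members, 61 had a lower fitted level in CTCF-dRBR, against 50.6% of all 14044 genes tested, and 2 had a higher one (all genes, 49.4%). The median log2 fold change of the members was -0.73, beside -0.0076 for all genes tested. All 3 CTCF-dRBR libraries were below all 3 CTCF-WT libraries for 42 of 63 members (all genes, 17.5%) and above them for 0 (all genes, 20%). An unadjusted p under 0.05 with a lower level was reached by 38 members (all genes, 12.8%), and 23 were more than 2-fold lower (all genes, 5.5%). With Benjamini-Hochberg adjustment over all genes, limma-voom called 0 members and 0 genes (all genes, 0%), with 3569 genes at an unadjusted p under 0.05. On the same counts edgeR's quasi-likelihood test called 0 members at an adjusted p under 0.05, with 31 of 63 at an unadjusted p under 0.05 (all genes, 24.6%), and DESeq2 called 20 members, all lower (all genes lower, 6.14%). With sample quality weights, limma-voom called 59 members lower (all genes, 35.8%) and 1 higher (all genes, 32.5%). The weights were 1.26, 5.65 and 0.496 for CTCF-WT replicates 1, 2 and 3. For CTCF-dRBR replicates 1, 2 and 3 they were 0.0969, 6.19 and 0.472, so that fit rested mainly on replicate 2 of each group. On log2(TPM + 1) limma called 2 members lower, HIST2H2AA3 and HIST1H3G (all genes, 0.762%), and 0 higher (all genes, 726 of 14044). Of the 63 members, 13 reached an unadjusted p under 0.05 there (all genes, 28.8%). On that scale 48 of 63 members were lower (all genes, 17.6%), and the median of all genes was 0.40. In bulk RNA, fewer cells in S phase and less histone RNA per cell cannot be told apart.

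The size of the difference rested in part on CTCF-dRBR replicate 1. That library was the lowest of the 6 for 51 of 63 members, whereas CTCF-WT replicate 1 was the highest for 48. The median member stood at a log2 ratio to the CTCF-WT mean of -1.30 in CTCF-dRBR replicate 1, -0.64 in replicate 2 and -0.36 in replicate 3. The direction was shared by the libraries, with 61, 61 and 60 of 63 members below the CTCF-WT mean. The spread among members was wider in replicate 1, with log2 ratios from -3.94 (HIST1H3G) to 0.73 (HIST2H2AC) and an SD of 1.08, against SDs of 0.48 and 0.33 in replicates 2 and 3. Without CTCF-dRBR replicate 1, 62 of 63 members were lower (all genes, 51.3%), the median log2 fold change was -0.47, and limma-voom called 2 members, HIST1H2AE and HIST1H2BM, both lower (all genes lower, 2.37%).

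GC content moved with the same difference. The exons of the 58 tested members with a GC value had a median GC of 57.7%, beside 47.0% for all genes tested. After removal of each library's GC trend, 47 of 58 members were lower (all genes, 51.3%), the median log2 fold change was -0.40, and 3 members passed an adjusted p of 0.05, namely HIST2H3A, HIST2H3C and HIST1H4L (all genes lower, 5.18%). HIST2H3A and HIST2H3C are 1 measurement, as described below. With the GC trend removed and CTCF-dRBR replicate 1 left out, 51 of 58 were lower (all genes, 50.8%), with a median of -0.33, and 25 passed, all lower (all genes lower, 13.2%). That joint setting was chosen after the data were seen.

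**Figure D2:**
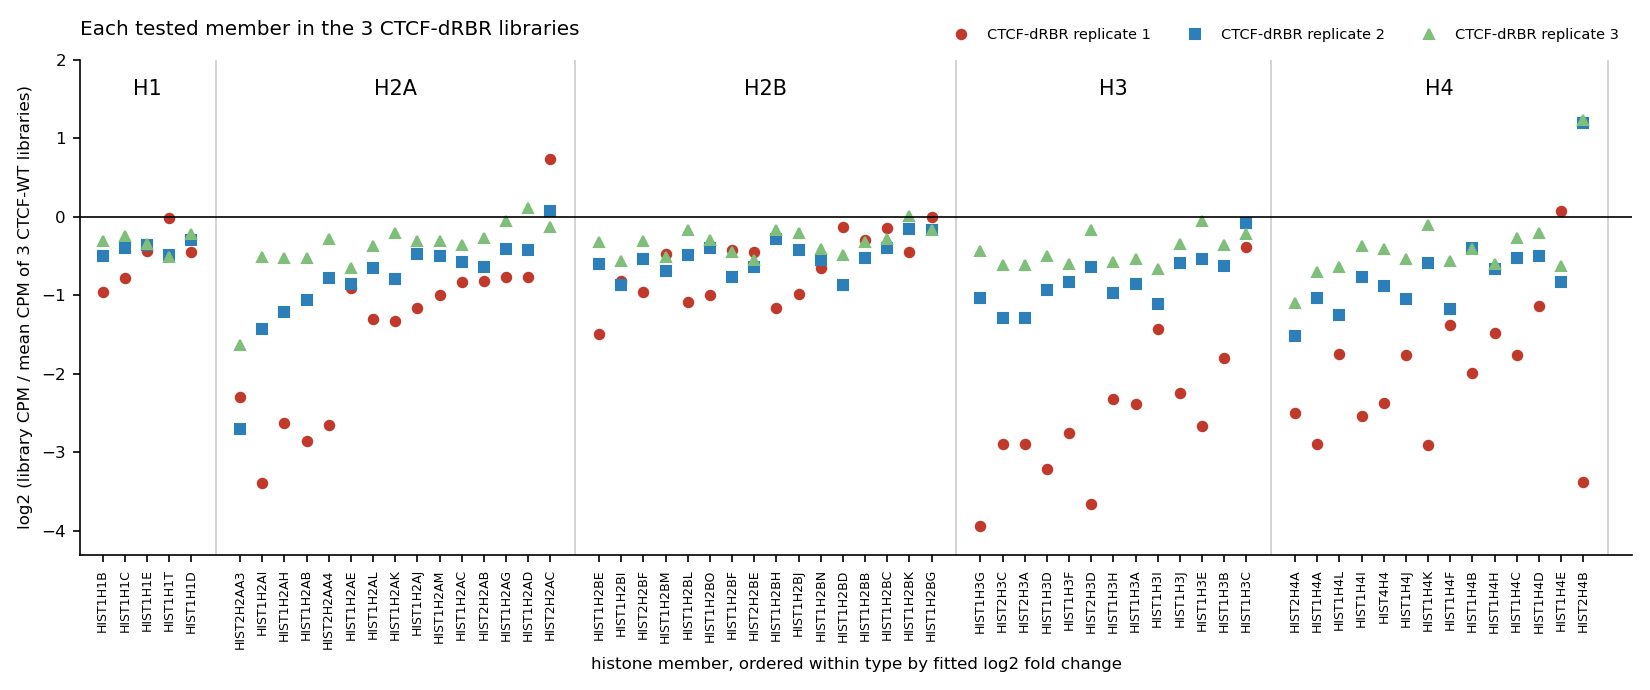
Log2 ratio of each tested member's CPM in a CTCF-dRBR library to the mean of the 3 CTCF-WT libraries (y axis), with members on the x axis ordered within type by fitted log2 fold change and each symbol 1 library. Replicate 1 falls as low as -3.94 for HIST1H3G, whereas replicates 2 and 3 sit nearer the CTCF-WT mean, with medians of -0.64 and -0.36.

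The 5 types did not stand at the same distance from CTCF-WT. The median log2 fold change was -0.38 for the 5 tested H1 members, -0.73 for 15 H2A, -0.53 for 16 H2B, -1.23 for 13 H3 and -1.03 for 14 H4. No test was made between types. Most of the distance between H3 and H4 and the other types came with CTCF-dRBR replicate 1, where the median log2 ratio was -2.66 for H3 and -1.88 for H4 against -1.16 for H2A, -0.56 for H2B and -0.45 for H1. In replicate 3 the type medians lay between -0.50 and -0.31. On the log2(TPM + 1) scale, where the median of all genes was shifted to 0.40, the medians were 0.12 for H1, -0.30 for H2A, -0.09 for H2B, -0.80 for H3 and -0.63 for H4, so that H1 turned to the other sign.

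**Figure D3:**
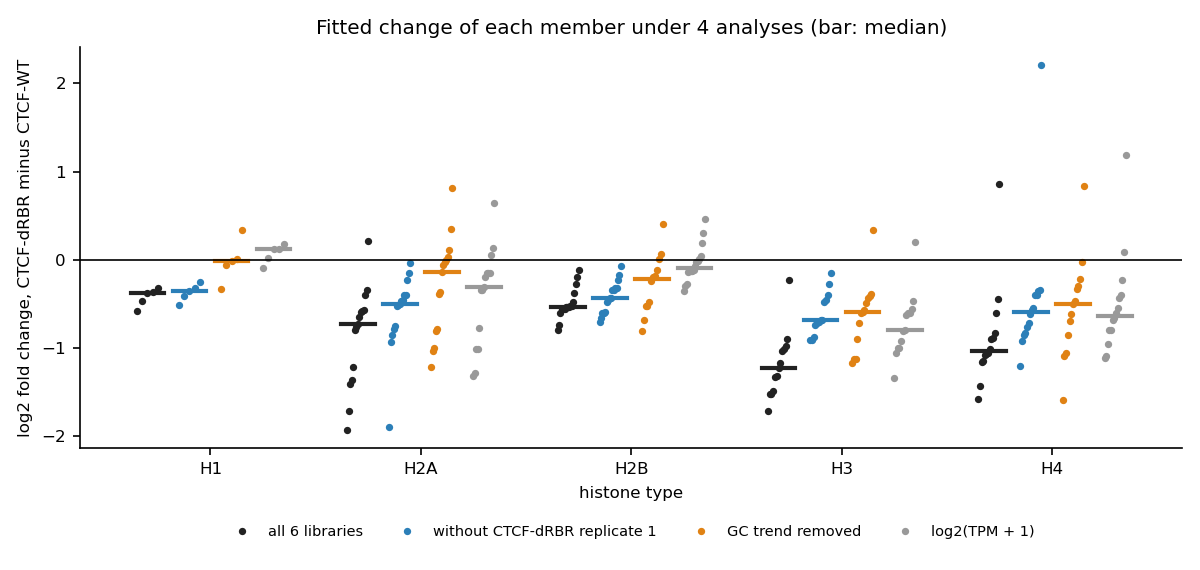
Fitted log2 fold change of each tested member, CTCF-dRBR minus CTCF-WT (y axis), by histone type (x axis) in 4 analyses, with the bar at the median. The H3 and H4 medians are below those of H1 and H2B in each analysis, and the H1 median moves from -0.38 with all 6 libraries to -0.018 with the GC trend removed and 0.12 on the TPM scale. The median of all genes on the TPM scale was 0.40.

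H1 linker histones bind where DNA enters and leaves the nucleosome. Their summed level was 5183, 4854 and 4395 CPM in CTCF-WT and 2978, 3626 and 3945 CPM in CTCF-dRBR, so the groups did not overlap. In deposited TPM the H1 sums overlapped, with 4508 ± 975 in CTCF-WT against 4574 ± 471 in CTCF-dRBR. HIST1H1B, HIST1H1C, HIST1H1D and HIST1H1E carried almost all of it, and the 3 with the highest TPM made up 81.1% of H1 TPM. HIST1H1B, which encodes H1.5, was measured at 1913, 1825 and 1649.6 CPM in CTCF-WT and at 927, 1272 and 1448 CPM in CTCF-dRBR. No CTCF-dRBR library reached the CTCF-WT range, and the log2 fold change was -0.58 (SE 0.18, limma-voom adjusted p = 0.149). HIST1H1C, which encodes H1.2, had 1205, 1120.0 and 1021 CPM in CTCF-WT and 648, 848 and 941 CPM in CTCF-dRBR, again without overlap (log2 fold change -0.47, SE 0.16). HIST1H1E, which encodes H1.4, had 1103, 1033 and 939 CPM against 760.3, 795 and 806 CPM. The 3 CTCF-dRBR libraries of HIST1H1E lay close together, and its log2 fold change was -0.38 (SE 0.09, limma-voom adjusted p = 0.13). For HIST1H1B the log2 fold change shrank to -0.018 with the GC trend removed and to -0.087 on the TPM scale. For HIST1H1C and HIST1H1E the sign turned with the GC trend removed, to 0.011 and 0.34, and on the TPM scale, to 0.020 and 0.12. The median of all genes on that TPM scale was 0.40, above the values of these H1 genes.

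H2A pairs with H2B to form the dimers that flank the H3-H4 core of the nucleosome. Of 15 tested H2A members, 14 had a lower fitted level in CTCF-dRBR, 10 without overlap (all genes, 17.5%). The summed level of H2A was 5869 ± 819 CPM over the CTCF-WT libraries and 3560.3 ± 1080.5 CPM over the CTCF-dRBR ones. The H2A sums overlapped in deposited TPM, at 8761 ± 1180 in CTCF-WT and 7079 ± 1389 in CTCF-dRBR. HIST1H2AE (ENSG00000168274.3, chr6:26217149-26217665, plus strand) had the smallest p of all members. It was measured at 833, 748 and 607 CPM in CTCF-WT and at 387, 403 and 463 CPM in CTCF-dRBR. The highest CTCF-dRBR library was below the lowest CTCF-WT library, and the 3 CTCF-dRBR values lay close to each other, replicate 1 included. The log2 fold change was -0.80 (SE 0.14, limma-voom adjusted p = 0.0959, with 0.000146 to 0.607 over the alternatives), and an exact permutation test gave p = 0.1, the smallest that 3 against 3 allows.

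The H2A genes with the highest TPM were HIST1H2AJ, HIST2H2AA4 and HIST1H2AE, with 39.5% of H2A TPM between them. HIST1H2AJ had 826, 731 and 680.4 CPM in CTCF-WT and 334, 536 and 600.5 CPM in CTCF-dRBR, without overlap (log2 fold change -0.64, SE 0.23). Its GC-adjusted log2 fold change was -0.025 (limma-voom adjusted p = 0.898). HIST1H2AI and HIST1H2AH showed how far single libraries could part. HIST1H2AI had 858, 735 and 479 CPM in CTCF-WT and 66.2, 256 and 482 CPM in CTCF-dRBR, so that CTCF-dRBR replicate 3 was within the CTCF-WT range. HIST1H2AH had 419, 365 and 288 CPM in CTCF-WT and 57.9, 154 and 248 CPM in CTCF-dRBR, without overlap.

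H2B genes showed the narrowest range among the core histones. All 16 tested H2B members had a lower fitted level, from -0.79 to -0.12 on the log2 scale, and 12 did not overlap (all genes, 17.5%). Their summed level was 6836 ± 608 CPM over the CTCF-WT libraries and 4988 ± 447 CPM over the CTCF-dRBR ones, or 68.2%, 70.3% and 80.4% of the CTCF-WT mean by library. In deposited TPM the H2B sums overlapped, at 10679 ± 2059.9 in CTCF-WT and 10643 ± 579.9 in CTCF-dRBR. HIST1H2BM (chr6:27782800-27783267, plus strand) had 280.3, 252 and 221 CPM in CTCF-WT and 179.8, 156 and 175 CPM in CTCF-dRBR. Its CTCF-dRBR libraries were all lower and close together, with a log2 fold change of -0.56 (SE 0.12, limma-voom adjusted p = 0.112). With the GC trend removed its log2 fold change was -0.18 (limma-voom adjusted p = 0.604). On the TPM scale it was -0.13, where the median of all genes was 0.40. HIST1H2BI had 610.0, 555 and 431 CPM in CTCF-WT against 302, 290.0 and 361 CPM in CTCF-dRBR, also without overlap, with a log2 fold change of -0.73 (SE 0.16).

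The 3 H2B genes with the highest TPM were HIST1H2BD, HIST1H2BK and HIST1H2BH, with 30.8% of H2B TPM. HIST1H2BD, which also has an annotated 3′ UTR of 384 bases, had 841, 755 and 574 CPM in CTCF-WT and 658, 397 and 517 CPM in CTCF-dRBR, and here replicate 1 was the highest CTCF-dRBR library and within the CTCF-WT range. HIST1H2BK had 538, 537 and 606 CPM in CTCF-WT and 411, 504 and 565 CPM in CTCF-dRBR, with overlap. Its log2 fold change of -0.19 (SE 0.14) became 0.40 with the GC trend removed and 0.46 on the TPM scale, where the median of all genes was also 0.40. HIST1H2BH had 520.4, 519 and 494 CPM in CTCF-WT and 229, 419 and 456 CPM in CTCF-dRBR, without overlap. HIST1H2BG had the smallest difference among the H2B members, at 436 to 451 CPM in CTCF-WT and 392.4 to 440.3 CPM in CTCF-dRBR.

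H3 forms the core tetramer with H4 and carries many of the marks read in chromatin. Of 13 tested H3 members, all had a lower fitted level, 10 by more than 2-fold (all genes, 5.5%). Of the 13, 7 did not overlap (all genes, 17.5%) and 5 reached an unadjusted p under 0.05 (all genes lower, 12.8%). The SEs of H3 members were large (median 0.57, beside 0.19 for all genes tested). The H3 sums overlapped in deposited TPM, at 6706 ± 457 in CTCF-WT and 5011 ± 1856 in CTCF-dRBR. They also overlapped in TPM rescaled to protein-coding genes. HIST1H3B had 868, 805 and 589.9 CPM in CTCF-WT and 218, 489.9 and 589.8 CPM in CTCF-dRBR. Replicate 3 of each group was nearly level, and replicate 1 of CTCF-dRBR was far below, with a log2 fold change of -0.90 (SE 0.38). HIST1H3H had 591, 528 and 321 CPM in CTCF-WT and 95.8, 244 and 321 CPM in CTCF-dRBR, which separated by less than 0.1 CPM between the nearest libraries. HIST1H3C differed from these, at 619.7, 534 and 525 CPM in CTCF-WT and 429, 528 and 481 CPM in CTCF-dRBR, with a log2 fold change of -0.22 (SE 0.12) that turned to 0.34 with the GC trend removed and 0.21 on the TPM scale. These 3 genes made up 51.3% of H3 TPM.

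HIST1H3I (chr6:27839623-27840124, minus strand) was the H3 gene with the smallest p. It had 276, 259 and 180.1 CPM in CTCF-WT and 88.5, 110.2 and 149.6 CPM in CTCF-dRBR, without overlap. The log2 fold change was -1.04 (SE 0.24, limma-voom adjusted p = 0.119, with 0.000178 to 0.482 over the alternatives). With the GC trend removed it was -0.39. HIST1H3G had 402, 388 and 258 CPM in CTCF-WT and 22.7, 171 and 259 CPM in CTCF-dRBR. CTCF-dRBR replicate 1 was at 6.51% of the CTCF-WT mean while replicate 3 was within the CTCF-WT range, so the log2 fold change of -1.71 carried an SE of 0.84, and it was -0.71 without that library.

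H4 is the partner of H3 and the most conserved of the histones. Of 14 tested H4 members 13 were lower, 8 by more than 2-fold (all genes, 5.5%), and 9 were lower without overlap (all genes, 17.5%). HIST1H4J (chr6:27791870-27792258, plus strand) had the highest TPM of any member in CTCF-WT, at 1811 ± 113 TPM, against 1159 ± 334 TPM in CTCF-dRBR. In CPM it stood at 871, 769 and 503 in CTCF-WT and at 211, 345 and 494 in CTCF-dRBR, without overlap. The log2 fold change was -1.07 (SE 0.35, limma-voom adjusted p = 0.157), and -0.30 with the GC trend removed. HIST1H4C had 548, 486 and 409 CPM in CTCF-WT and 142, 334 and 397 CPM in CTCF-dRBR, without overlap (log2 fold change -0.83, SE 0.38). HIST1H4H had 581, 523 and 397 CPM in CTCF-WT and 180.1, 316 and 331 CPM in CTCF-dRBR, again without overlap (log2 fold change -0.89, SE 0.27). HIST1H4E ran against the rest in 1 library, at 908, 764 and 590.3 CPM in CTCF-WT and 796, 422 and 488 CPM in CTCF-dRBR, where replicate 1 was within the CTCF-WT range.

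**Figure D4:**
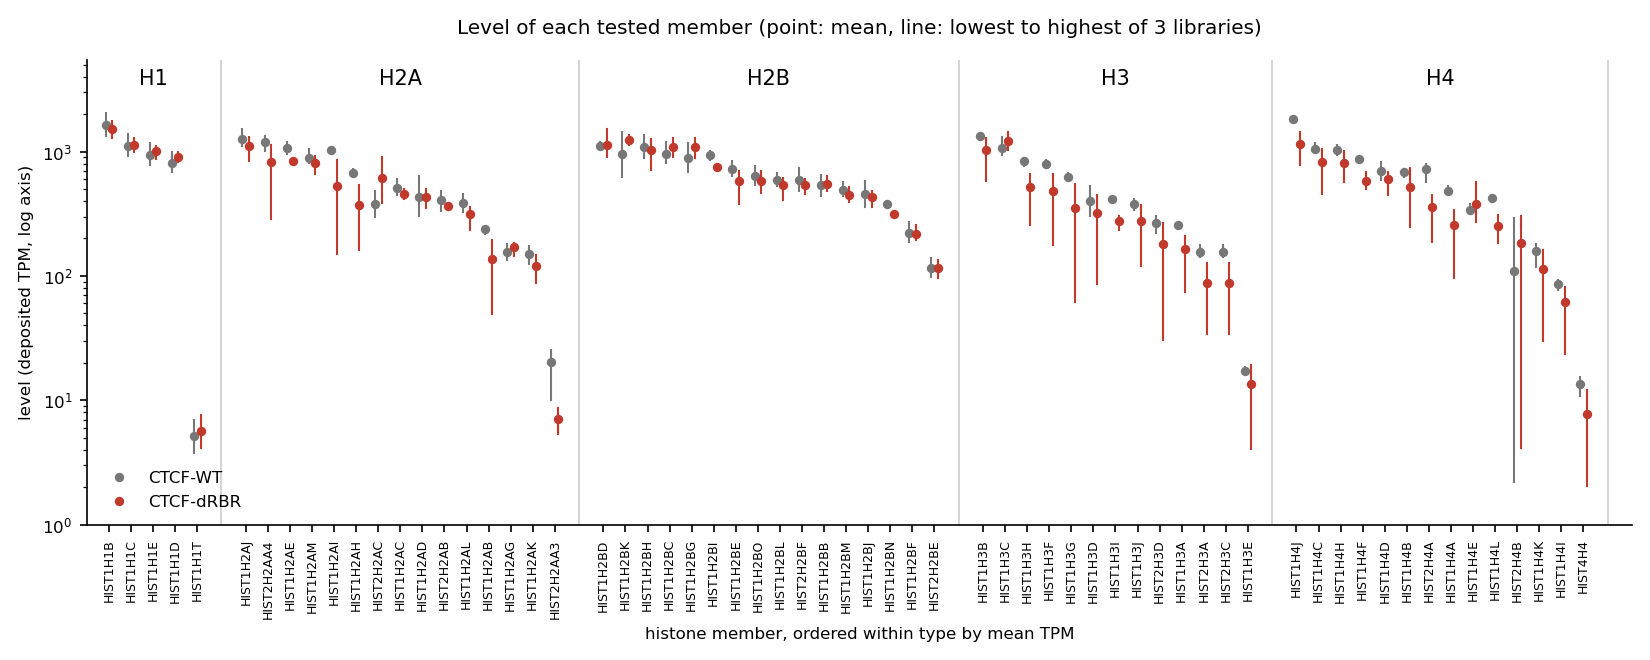
Level of each tested member in deposited TPM (y axis, log axis), ordered within type by mean TPM (x axis), with grey for CTCF-WT, red for CTCF-dRBR, the point the mean and the line the range of 3 libraries. HIST1H4J leads H4 at 1811 TPM in CTCF-WT, and the lines of H3 and H4 members in CTCF-dRBR reach further down than those of H1 and H2B.

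The HIST2 cluster could be read only with its copies in mind. HIST2H2AA3 and HIST2H2AA4, HIST2H4A and HIST2H4B, and HIST2H3A and HIST2H3C are near-identical copies, and RSEM divides reads that fit more than 1 copy. HIST2H3A and HIST2H3C had equal CPM in each library, so they hold 1 measurement. HIST2H4B moved from 7.91 and 33.9 to 177 CPM among the CTCF-WT libraries and from 7.05 to 167 and 172 CPM among the CTCF-dRBR libraries, so its log2 fold change of 0.85 had an SE of 1.56. Summed with HIST2H4A, the pair had 1008, 867 and 559 CPM in CTCF-WT and 138, 424 and 517 CPM in CTCF-dRBR, without overlap (log2 fold change -1.33, SE 0.51, limma-voom adjusted p = 0.185). HIST2H2AA3 and HIST2H2AA4 together had 929.7, 927 and 697 CPM in CTCF-WT and 137, 484 and 682 CPM in CTCF-dRBR, without overlap (log2 fold change -1.24, SE 0.57). The 3 H3 genes HIST2H3A, HIST2H3C and HIST2H3D summed to 1107, 1130.1 and 643 CPM in CTCF-WT and 123, 420.2 and 653 CPM in CTCF-dRBR, where CTCF-dRBR replicate 3 was above CTCF-WT replicate 3 (log2 fold change -1.52, SE 0.61).

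Among the other HIST2 genes, HIST2H2AB had 215, 219 and 187 CPM in CTCF-WT and 117, 133 and 171 CPM in CTCF-dRBR, without overlap (log2 fold change -0.57, SE 0.16), although it stood at 0.032 with the GC trend removed. HIST2H2BF had 519, 495 and 451 CPM in CTCF-WT and 252, 335 and 392.2 CPM in CTCF-dRBR, without overlap (log2 fold change -0.60, SE 0.17). HIST4H4, the lone gene of its cluster, was low, at 16.2, 12.8 and 7.19 CPM in CTCF-WT and 2.34, 6.55 and 9.10 CPM in CTCF-dRBR, with overlap. By cluster, the median log2 fold change was -0.73 over 51 HIST1 members and -1.22 over 11 HIST2 members, the latter with copies counted separately.

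HIST2H2AC and HIST2H2BE are transcribed away from each other from a shared region, and their log2 fold changes had opposite signs. HIST2H2BE (chr1:149856009-149858232, minus strand) had 473, 419 and 355 CPM in CTCF-WT and 306, 267 and 285 CPM in CTCF-dRBR. The groups did not overlap, and the log2 fold change was -0.53 (SE 0.13, limma-voom adjusted p = 0.126). It became 0.0094 on the TPM scale, where the median of all genes was 0.40. HIST2H2AC (chr1:149858468-149858961, plus strand) had 183, 183 and 182 CPM in CTCF-WT and 304, 191 and 168 CPM in CTCF-dRBR. The CTCF-WT libraries were nearly equal, and the CTCF-dRBR libraries lay on both sides of them, with a log2 fold change of 0.22 (SE 0.22, limma-voom adjusted p = 0.491). Without CTCF-dRBR replicate 1, the log2 fold change of HIST2H2AC was -0.034, and that of HIST2H2BE was -0.59.

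The 235 bases between the annotated starts of the pair are shown because both genes start there and their values parted. The sequence is chr1:149858233-149858467 on GRCh37, plus strand, with HIST2H2BE running to the left and HIST2H2AC to the right. Capitals mark matches on either strand to the CCAAT box (CCAAT), the TATA box (TATAAA) and the core of the octamer bound by OCT1 (TTTGCAT).
HIST2H2BE and HIST2H2AC: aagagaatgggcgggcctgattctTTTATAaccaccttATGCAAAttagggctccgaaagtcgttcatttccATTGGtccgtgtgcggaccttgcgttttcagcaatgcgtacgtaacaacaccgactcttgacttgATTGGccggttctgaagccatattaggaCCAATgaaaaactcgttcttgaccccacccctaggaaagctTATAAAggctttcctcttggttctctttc
A TATA box stood near each end and 3 CCAAT boxes stood between them, while the single octamer core lay at bases 39 to 45, on the HIST2H2BE side. In RefSeq promoters of 300 bases (250 before and 50 after the start, GRCh38.p14), a CCAAT box was present for 51 of 61 members found there and for 35.7% of all 27305 genes. It was present in 16 of 16 H2A, 13 of 13 H2B and 13 of 13 H3 promoters but in 3 of 13 H4 promoters. The octamer core was in 9 of 13 H2B and 11 of 16 H2A promoters and in 4.51% of all, and the TATA box was in 41 of 61 members and 11.95% of all. A match is a description of letters and shows no binding.

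Such divergent starts recur in the family. Among members with starts on opposite strands and under 1000 bases apart, 8 pairs joined a tested H2A and a tested H2B gene. The H2A gene had the lower log2 fold change in 6 of the 8 pairs, and in 5 of 8 without CTCF-dRBR replicate 1. The median difference, H2A minus H2B, was -0.15 on the log2 scale, and -0.040 without that library. In 2 pairs the difference exceeded 1 log2 unit, since HIST1H2BK and HIST1H2BL stood at -0.19 and -0.56 while their partners HIST1H2AH and HIST1H2AI stood at -1.41 and -1.71. The values of the other pairs lay closer together, such as -0.59 for HIST1H2AM and -0.55 for HIST1H2BO.

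**Figure D5:**
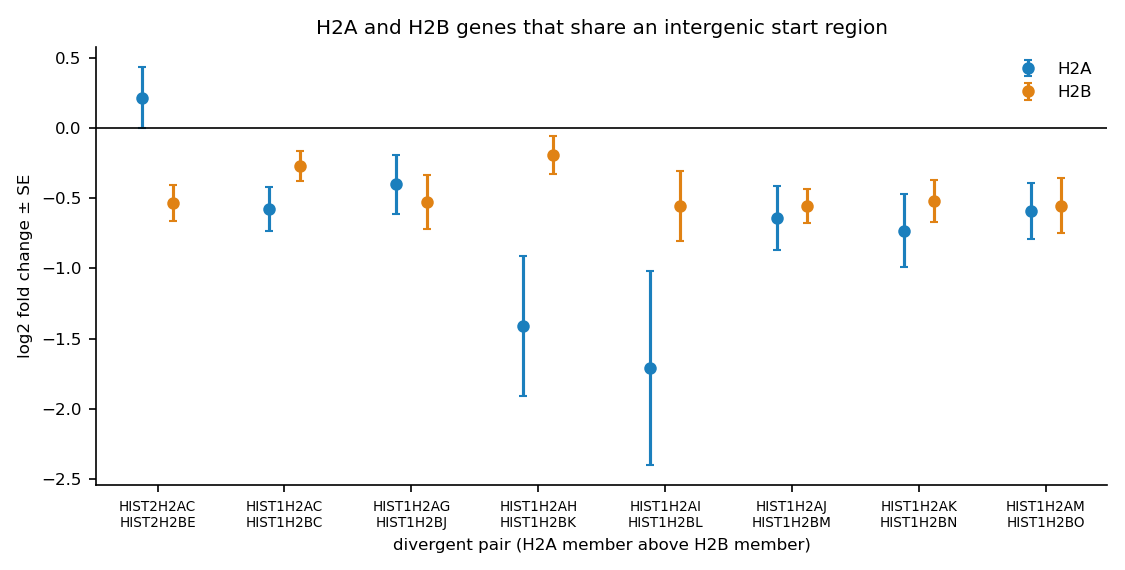
Log2 fold change ± SE (y axis), CTCF-dRBR minus CTCF-WT, of the H2A gene (blue) and the H2B gene (orange) of 8 divergent pairs (x axis). HIST2H2AC sits above its partner HIST2H2BE, at 0.22 against -0.53, whereas HIST1H2AH and HIST1H2AI sit over 1 log2 unit below theirs.

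Members were also set apart by the end of the message. Some histone genes are annotated with an additional long, polyadenylated 3′ UTR, as is known for genes still expressed when division stops. The 14 tested members with an annotated 3′ UTR over 200 bases had a median log2 fold change of -0.59, and the 44 without had -0.78. With the GC trend removed the order turned, to -0.80 and -0.31, and the median GC of the exons was 47.6% in the first group and 58.4% in the second. By loop, the median was -0.70 for the 34 tested members with the loop uuuc in the common stem and -0.48 for the 7 with uuua. The values of the 7 ran from -1.71 to -0.19. The loop groups also differed in type, so loop and type were not separated. H2B made up 10 of all 39 members with uuuc and 4 of all 9 with uuua, and H3 made up 12 and 2.

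The genes that make and break down histone mRNA were read from lists of known factors, and limma-voom called 0 genes in any of them at an adjusted p of 0.05. Of 10 genes for histone transcription, 7 were lower and 3 higher in fitted level. NPAT, the coactivator of the histone locus body, had 83.6, 87.1 and 101 CPM in CTCF-WT and 134, 124 and 108 CPM in CTCF-dRBR (log2 fold change 0.42, SE 0.13, limma-voom adjusted p = 0.148, and 0.11 with the GC trend removed). NFYA, a subunit of the factor that binds the CCAAT box, had 43.2, 41.9 and 36.4 CPM in CTCF-WT and 33.9, 24.5 and 23.5 CPM in CTCF-dRBR (log2 fold change -0.61, SE 0.16). The groups did not overlap for either gene, and the directions were opposite.

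Of 14 genes for 3′ end processing, 9 were lower and 5 higher, 7 of them lower without overlap (all genes, 17.5%), with a median of -0.24. SYMPK, the scaffold of the histone cleavage complex, had 65.7, 60.7 and 54.3 CPM in CTCF-WT and 23.6, 29.9 and 38.2 CPM in the CTCF-dRBR libraries, each below every CTCF-WT library (log2 fold change -0.97, SE 0.18, limma-voom adjusted p = 0.1). SNRPB, a protein of the Sm ring, had 272, 265 and 180.3 CPM in CTCF-WT and 104, 119.8 and 167 CPM in CTCF-dRBR (log2 fold change -0.87, SE 0.23). Of 7 genes for histone mRNA decay, 5 were higher and 2 lower, with a median of 0.22. Removing the GC trend brought that median to 0.063, and leaving out CTCF-dRBR replicate 1 brought it to 0.047. XRN1, the 5′ exonuclease, had 117, 126 and 127 CPM in CTCF-WT and 193, 158 and 145 CPM in CTCF-dRBR (log2 fold change 0.41, SE 0.13), and the uridylyltransferase ZCCHC11 had a log2 fold change of 0.36 (SE 0.16). With the GC trend removed, XRN1 stood at 0.069 and ZCCHC11 at 0.063, and SYMPK stood at -0.48.

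Of 8 histone chaperones, 5 were lower and 3 higher. ASF1A, which hands H3-H4 to other chaperones, had 55.7, 59.7 and 70.0 CPM in CTCF-WT and 105, 95.0 and 86.8 CPM in CTCF-dRBR, all higher (log2 fold change 0.63, SE 0.13, limma-voom adjusted p = 0.108, and 0.24 with the GC trend removed). CHAF1B, a subunit of CAF-1, had 36.9, 31.4 and 33.8 CPM in CTCF-WT and 25.3, 24.6 and 28.1 CPM in CTCF-dRBR, all lower (log2 fold change -0.38, SE 0.12).

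Genes of S phase were read beside the histone genes. Of 22, 16 were lower and 6 higher, with a median log2 fold change of -0.22. Of the 22 genes, 10 were lower without overlap (all genes, 17.5%) and 0 higher without overlap (all genes, 20%). Their summed level was 4827, 4905 and 4908 CPM in CTCF-WT and 3996, 4269 and 4489.9 CPM in CTCF-dRBR. Within CTCF-dRBR, replicate 1 was the lowest and replicate 3 the highest, as in the histone sums. The summed B-lineage markers had the same order, at 625, 907 and 1088 CPM. Within CTCF-WT the order was the reverse of that of the histone sums, which were 30027, 27685 and 22593 CPM. The S-phase median was -0.15 with the GC trend removed and -0.16 without CTCF-dRBR replicate 1. MCM6, part of the replicative helicase, had 163, 154 and 152 CPM in CTCF-WT and 99.0, 112 and 108 CPM in CTCF-dRBR (log2 fold change -0.56, SE 0.09, limma-voom adjusted p = 0.0959). RRM2, the small subunit of ribonucleotide reductase, had 356, 316 and 329.5 CPM in CTCF-WT and 234, 243 and 228 CPM in CTCF-dRBR (log2 fold change -0.51, SE 0.09). Without CTCF-dRBR replicate 1, 3 of the 22 passed an adjusted p of 0.05, all lower (all genes lower, 2.37%). The part of S phase in the histone difference was not tested.

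Levels in TPM rest on the gene length used for counting, which could be compared through the reads behind 1 TPM. For 9 of 63 tested members that ratio was over 2 times the median of their type, among them HIST2H2BE at 6.24 and HIST1H2AG at 6.16 times. For the same reads, their TPM is therefore lower than that of a typical member of their type. The longest annotated 3′ UTR was 1801 bases for HIST2H2BE but 71 bases for HIST1H2AG, and the lengths behind the deposited TPM were not examined. With the length trend of each library removed, the log2 fold change of HIST2H2BE went from -0.53 to -0.30 and that of HIST2H2BF from -0.60 to -0.37.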

How the data were processed

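Total RNA was sequenced after ribosomal RNA removal (Kapa RNA HyperPrep with RiboErase). The authors trimmed reads with TrimGalore 0.6.3, aligned them to GRCh37 with STAR 2.7.9a and quantified genes with RSEM 1.3.1 on Gencode version 19, and deposited 1 table of expected counts and 1 of TPM. The strand setting is not given in the sources used here. Expected counts were rounded to whole numbers only for DESeq2 and edgeR.

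Genes that reached 1 CPM in no library were dropped, and CTCF-dRBR was compared with CTCF-WT by limma-voom (limma 3.58.1) after TMM scaling (edgeR 4.0.16), with Benjamini-Hochberg adjustment over 14044 genes. CPM values are TMM-scaled. Levels of different genes were compared in TPM only. Alternatives used edgeR, DESeq2 1.42.0, sample weights, other scalings and filters, the deposited TPM, and a loess GC or length trend removed per library, and the script was tested on simulated data. Annotation, exon GC and sequences came from Gencode version 44 on GRCh37, with older symbols matched through RefSeq.

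Members, factor lists and tests were chosen with earlier results of these data known. Named members are the 3 with the highest mean TPM per type, the 5 tested with the smallest p in each direction, and all tested HIST2 and HIST4 members. In each factor list, the 2 genes with the smallest p are named. HIST1H1D, HIST1H1T, HIST1H2AG, HIST1H2AH, HIST1H2AI, HIST1H2AK, HIST1H2AM, HIST1H2BG, HIST1H2BL, HIST1H2BO, HIST1H3E, HIST1H3G, HIST1H4E and HIST1H4L were named after their values were seen, as were members listed by annotation.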

Additional observations from a re-analysis of the deposited data

Results flagged for a closer look

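One tested histone row outside the 71 members had a signal that was higher in every CTCF-dRBR library than in every CTCF-WT library. HIST2H2BC, which is not annotated as protein-coding, had a mean of 1.76 CPM in CTCF-dRBR, with 1.41, 2.36 and 1.52 CPM against 0.922, 1.34 and 1.29 CPM in CTCF-WT. Its log2 fold change was 0.57 (limma-voom adjusted p = 0.231), and 20% of all genes tested were higher without overlap. HIST1H4PS1 was also higher in each, but at 0.0334 to 0.0582 CPM it was not tested. HIST2H2BD, another tested row left out of the 71, had a log2 fold change of -3.90 (limma-voom adjusted p = 0.184). It was near the filter of 1 CPM, with 1.57, 0.826 and 0.610 CPM in CTCF-WT and 0, 0 and 1.05 CPM in CTCF-dRBR.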

How the results depend on the processing

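Counts past an adjusted p of 0.05 depended on the test. All genes went from 0 in limma-voom to 1619 in DESeq2, 9583 with sample quality weights, 1261 with the GC trend removed, 833 on log2(TPM + 1) and 760.0 on log2(TPM + 0.1), and to 3153 with the GC trend removed and CTCF-dRBR replicate 1 left out. Histone members went from 0 to 20, 60.0, 3, 2, 2 and 25 in the same order. Leaving out 1 library gave 0 to 535 genes and 0 to 2 members, and the calls came without CTCF-dRBR replicate 1. The median log2 fold change of the members was -0.30 on either TPM scale, beside 0.40 for all genes on log2(TPM + 1). It was -0.33 with the GC trend removed and CTCF-dRBR replicate 1 left out, and it ran from -0.87 to -0.47 over single libraries left out. Its replicate SD was 0.36. The log2 ratio of the summed level was -0.65. In deposited TPM, where the groups overlapped, it was -0.23, smaller in size than the replicate SD of 0.275. The move from -0.65 to -0.23 was larger than that SD. The cause of these differences was not tested. In quality weights, the 1 member called higher was HIST2H4B, a copy of HIST2H4A.

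Among the named members, 24 of 688 values under an alternative had the other sign, in 8 genes. With the GC trend removed these were HIST1H1C (0.011), HIST1H1E (0.34), HIST1H2BK (0.40), HIST1H3C (0.34) and HIST2H2AB (0.032), and with CTCF-dRBR replicate 1 also left out HIST1H2BK (0.20) and HIST1H3C (0.10). On log2(TPM + 1) and log2(TPM + 0.1) they were HIST1H1C (0.020 in both), HIST1H1E (0.12), HIST1H2BK (0.46), HIST1H3C (0.21) and HIST2H2BE (0.0094 and 0.0095). The median of all genes on log2(TPM + 1) was 0.40, so only HIST1H2BK was above it. HIST2H4B turned to -0.24 when CTCF-WT replicate 1 was left out and reached 2.20 without replicate 1 of CTCF-dRBR, and HIST2H2AC turned to -0.034 without CTCF-dRBR replicate 1.

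Replicate numbers are shared by the groups, and deviations of same-numbered libraries correlated at -0.34, 0.10 and -0.47. These values cannot show whether same-numbered cultures were handled together, since the first principal component carried 73.5% of the variance. With a replicate block, 0 genes and 0 members passed, and the median stayed at -0.73. With the block and the GC trend removed, 0 genes and 0 members passed, the median was -0.39, and the signs that turned were those of HIST1H1C (0.011), HIST1H1E (0.34), HIST1H2BK (0.40), HIST1H3C (0.33) and HIST2H2AB (0.034).

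At 3 libraries a group, an exact test cannot go below p = 0.1. The 8 untested members had at most 2.31 counts in any library, so a difference in them was not detectable at this depth. Copies within HIST2 cannot be separated by these counts.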
